A study of Homo sapiens with 4 samples.

Results

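The zinc finger genes of human chromosome 19 were taken as the rows of the count table whose GENCODE 29 symbol is ZNF with a number and, in some, a letter, whose type is protein-coding and whose chromosome is 19. This gave 246 genes of 58735 in the table, and they were set beside the 263 protein-coding ZNF genes on other chromosomes. RNA-seq was done on A549 cells, a human line from a lung adenocarcinoma, with 2 libraries (control 1 and control 2) carrying a non-targeting guide (sgNTC) and 2 libraries (UHRF1 KO 1 and UHRF1 KO 2) carrying a guide against UHRF1. All 4 libraries came from cells infected with a lentiCRISPRv2-hygro vector and selected in hygromycin. The labels do not state the time after infection, nor if a library came from a mixed population or from 1 clone. They number the replicates without calling them separate cultures, so p-values measure only how far these libraries spread, and that spread may be technical.

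Behind the replication fork, UHRF1 recognises DNA that is methylated on the old strand alone and brings the maintenance methyltransferase DNMT1 to it, so that methylation is copied to the new strand. Most ZNF proteins of chromosome 19 carry a KRAB box followed by an array of C2H2 zinc fingers: the fingers read DNA, often within a transposable element, and the KRAB box binds TRIM28, a scaffold that brings SETDB1, the HP1 proteins and other factors that deposit or read H3K9 methylation. The genes arose by tandem duplication and stand in dense clusters, and the promoters of several are known to gain methylation in tumours.

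The 300-base RefSeq promoter windows (GRCh38.p14, 250 bases before to 50 after the annotated start) were matched by symbol for 215 of the 246 genes. Windows of 6 genes are shown because the silent neighbours ZNF528, ZNF534 and ZNF701 behaved differently in UHRF1 KO, ZNF677 and ZNF93 lie in runs of genes that were silent in all libraries, and ZNF792 had the largest rise among the called genes with at least 1 CPM (counts scaled to a common library size) in the higher group. Each is written 5′ to 3′ on the gene's strand, and capitals mark the CG dinucleotides.
ZNF528: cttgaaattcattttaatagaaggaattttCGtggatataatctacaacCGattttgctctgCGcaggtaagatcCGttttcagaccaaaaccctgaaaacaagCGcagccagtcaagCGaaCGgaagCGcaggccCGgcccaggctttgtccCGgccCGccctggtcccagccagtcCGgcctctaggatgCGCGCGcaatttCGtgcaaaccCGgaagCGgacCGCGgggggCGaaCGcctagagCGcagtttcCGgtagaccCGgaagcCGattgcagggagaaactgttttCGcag
ZNF534: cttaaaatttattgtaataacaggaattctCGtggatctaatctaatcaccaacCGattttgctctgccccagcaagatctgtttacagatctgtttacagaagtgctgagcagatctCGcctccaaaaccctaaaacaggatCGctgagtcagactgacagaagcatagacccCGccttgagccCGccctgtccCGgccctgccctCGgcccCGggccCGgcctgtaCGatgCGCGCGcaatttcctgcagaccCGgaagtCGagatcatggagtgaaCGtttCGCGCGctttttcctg
ZNF701: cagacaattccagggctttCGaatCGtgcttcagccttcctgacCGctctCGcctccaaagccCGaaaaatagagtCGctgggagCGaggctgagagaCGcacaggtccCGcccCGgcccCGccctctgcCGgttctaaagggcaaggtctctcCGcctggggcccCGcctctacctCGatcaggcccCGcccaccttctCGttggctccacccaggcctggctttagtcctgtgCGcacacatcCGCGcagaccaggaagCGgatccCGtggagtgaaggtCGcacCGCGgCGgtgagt
ZNF677: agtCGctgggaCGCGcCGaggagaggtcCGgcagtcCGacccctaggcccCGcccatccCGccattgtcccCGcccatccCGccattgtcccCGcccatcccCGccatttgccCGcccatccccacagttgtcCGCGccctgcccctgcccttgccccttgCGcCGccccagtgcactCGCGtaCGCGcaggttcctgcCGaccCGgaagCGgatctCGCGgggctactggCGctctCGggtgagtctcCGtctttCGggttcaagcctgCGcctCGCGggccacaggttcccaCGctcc
ZNF93: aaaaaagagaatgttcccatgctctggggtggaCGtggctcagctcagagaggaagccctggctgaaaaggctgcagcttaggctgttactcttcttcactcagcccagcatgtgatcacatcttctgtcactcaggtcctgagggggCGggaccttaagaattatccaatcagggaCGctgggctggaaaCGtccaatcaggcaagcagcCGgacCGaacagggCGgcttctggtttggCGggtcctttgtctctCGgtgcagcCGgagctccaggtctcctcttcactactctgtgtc
ZNF792: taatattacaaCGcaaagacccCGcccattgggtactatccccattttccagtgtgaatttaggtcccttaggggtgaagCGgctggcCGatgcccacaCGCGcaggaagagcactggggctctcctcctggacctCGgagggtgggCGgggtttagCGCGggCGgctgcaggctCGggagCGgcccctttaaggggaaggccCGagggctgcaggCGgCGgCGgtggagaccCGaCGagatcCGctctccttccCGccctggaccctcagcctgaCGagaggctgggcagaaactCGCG
The ZNF528 window is at chr19:52397599-52397898 on the plus strand, that of ZNF534 at chr19:52428898-52429197 (plus) and that of ZNF701 at chr19:52570037-52570336 (plus). The ZNF677 window is at chr19:53254774-53255073 (minus), that of ZNF93 at chr19:19900696-19900995 (plus) and that of ZNF792 at chr19:34964180-34964479 (minus). They hold 27, 20, 26, 34, 10 and 24 CG dinucleotides in the order shown.

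The windows of the chromosome 19 ZNF genes held more CG than RefSeq windows at large. Those were not limited to coding genes or to 1 window per gene, and coding genes alone were not counted. The motif CG, which reads the same on both strands, occurred a median of 20 times per window against 14 over all 35116 RefSeq windows, of which 96.0% hold at least 1. At least 15 were found in 74% of the matched genes (159 of 215) and in 48.9% of all windows. The longest stretch that ZNF528 and ZNF534 have in common is 18 bases, CAACCGATTTTGCTCTGC, and only these 2 of the 35116 windows hold it on either strand. ZNF534 and ZNF701 have the 13 bases TCTCGCCTCCAAA in common, which were found in 8 windows, those of ZNF83, ZNF525, ZNF534, ZNF611, ZNF701, ZNF765, ZNF845 and the ZNF765-ZNF761 locus, all from the same stretch of the chromosome. These stretches were chosen after the sequences were seen and are a description of duplicated neighbours.

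The targeted gene was measured first. UHRF1 stood at 97.6 and 98.9 CPM (scaled by TMM) in the control libraries and at 39.1 and 40.2 CPM in the UHRF1 KO libraries, which is -1.31 on the log2 scale (SE 0.055, edgeR adjusted p = 3.92e-20). Totals were 18604598 to 23977168 counts per library. Across 17030 tested genes, 62% passed an edgeR adjusted p of 0.05, with 5445 higher and 5118 lower in UHRF1 KO, and genes with at least 1 count numbered 24504 to 24600 in the controls against 28486 to 29341 in UHRF1 KO. Of 6 epithelial markers EPCAM was higher and the other 5, KRT7, KRT8, KRT18, KRT19 and CDH1, were lower. Of 10 markers of blood, endothelial and stromal cells 3 were tested and all 3 were higher (PECAM1, COL1A1 and PDGFRB), against 32% of all tested genes. PECAM1, with 7 and 2 control counts, and PDGFRB, with 3 and 3, had enough counts for testing in UHRF1 KO alone, so they had to be high there. COL1A1 had 57 and 81 control counts, and CD3E was at 0 in all libraries. The summed level of the 10 markers was 3.93 to 4.80 CPM in the controls and 48.5 to 50.8 CPM in UHRF1 KO. Their part in the results was not tested.

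Chromosome 19 ZNF genes were silent in A549 cells as often as coding genes at large. Of the 246 genes, 33 had no count in any library and 69 (28%) had at most 3 counts over both control libraries together, against 27.9% of all coding genes, 30.4% of the other coding genes of chromosome 19 and 11% of ZNF genes elsewhere. Of those 69, 3 reached at least 10 counts in each UHRF1 KO library: ZNF528, ZNF471 and ZNF701. That is 4.35%, against 3.45% of silent ZNF genes on other chromosomes (1 of 29, ZNF334), 5.09% of other silent coding genes of chromosome 19 (19 of 373) and 7.19% of all silent coding genes (401 of 5574). The share rests on 3 genes here and on 1 gene among the ZNF genes elsewhere. These are too few to rank the sets, and no test between them was run. In 35 of the 69 (50.7%) no read was counted in either UHRF1 KO library, against 48.5% of all silent coding genes. The count depended on its limits: with 0 control counts required, 1 gene came on (ZNF528; 1.85% against 5.01% of all coding genes), and with 5 counts required in each UHRF1 KO library 5 did (7.25% against 12.7% of all coding genes and 3.45% of ZNF genes elsewhere), ZNF83 and ZNF836 being added. ZNF701, ZNF471, ZNF83 and ZNF836 are named after their values were seen. A count of 0 need not mean silence where reads that match several genes were dropped: silent genes had a median of 4.81% of their transcript 50-base stretches in another gene against 1.81% for the rest, and ZNF177, ZNF625 and ZNF320, all at 0 in every library, had 86.8%, 81.3% and 75.2%.

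Silence came in blocks of neighbours. From ZNF441 to ZNF625 (chr19:11767000-12156729) 12 adjacent ZNF genes had 0 control counts in all, and together 5 and 4 counts in UHRF1 KO 1 and UHRF1 KO 2. From ZNF208 to ZNF730 (chr19:21932958-23147219) 10 genes had 0 control counts and together 2 and 8 counts in UHRF1 KO. From ZNF253 to ZNF85 (chr19:19865886-20950697) 9 genes had 3 control counts and together 2 and 2. These 3 blocks held no gene that came on. A count of 0 over both controls allows up to 3 counts, or 0.0825 CPM, so very low levels could not be detected at this depth. In bulk RNA, fewer cells with a transcript and less transcript per cell cannot be told apart.

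The block from ZNF528 to ZNF83 (chr19:52397849-52690496) was different, with 2 of its 6 genes coming on. ZNF528, a KRAB gene with 15 fingers, had 0 and 0 counts in the controls and 14 and 17 counts in UHRF1 KO 1 and UHRF1 KO 2. At 0.675 and 0.684 CPM it was at least 8.24-fold higher than the floor of 3 counts over both controls. ZNF528 and ZNF701 passed the count filter through UHRF1 KO alone and had to differ, so no p-value is given for them. Its neighbour ZNF534, which binds the HERVH family of endogenous retroviruses, had 0 counts in all 4 libraries. ZNF701 had 0 and 3 counts in the controls and 17 and 17 in UHRF1 KO, which is 3.09 on the log2 scale (SE 0.75). ZNF83, the last of the block, had 0 and 1 control counts and 7 and 6 in UHRF1 KO, too few to be tested. The windows of ZNF528 and ZNF701 hold 27 and 26 CG, and that of ZNF677, at 0 counts throughout, holds 34. Of the silent genes, 56 had a window, with a median of 16 CG against 21 for the 159 matched genes with over 3 control counts.

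Among the 169 chromosome 19 ZNF genes with enough counts to be tested, 34 were higher, 43 were lower and 92 did not pass in UHRF1 KO. This is 45.6% called, with 20.1% higher and 25.4% lower, against 62% of all tested genes (32% higher and 30.1% lower), so fewer of them passed than of genes at large and the median log2 fold change was -0.00046 against 0.02. ZNF genes on other chromosomes leaned further down: of 227 tested, 36 were higher and 82 lower (15.9% and 36.1%, 52% in all), with a median of -0.15. The other coding genes of chromosome 19 leaned up, with 368 higher and 179 lower of 797 (46.2% and 22.5%, 68.6% in all) and a median of 0.20. No test between these sets was run. More chromosome 19 ZNF genes fell than rose under TMM, DESeq2 and upper-quartile scaling; with the trends of GC content and exon length taken out this turned to 51 higher and 36 lower, and with recentring as well it was 21 higher and 71 lower. For the ZNF genes elsewhere falls outnumbered rises in both, at 50 higher and 69 lower, and at 18 and 139. DESeq2's own test called 17 higher and 23 lower, against 4187 and 3998 of all genes. Without UHRF1 KO 2 there were 19 higher and 34 lower, against 4626 and 4388 of all genes.

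**Figure D1:**
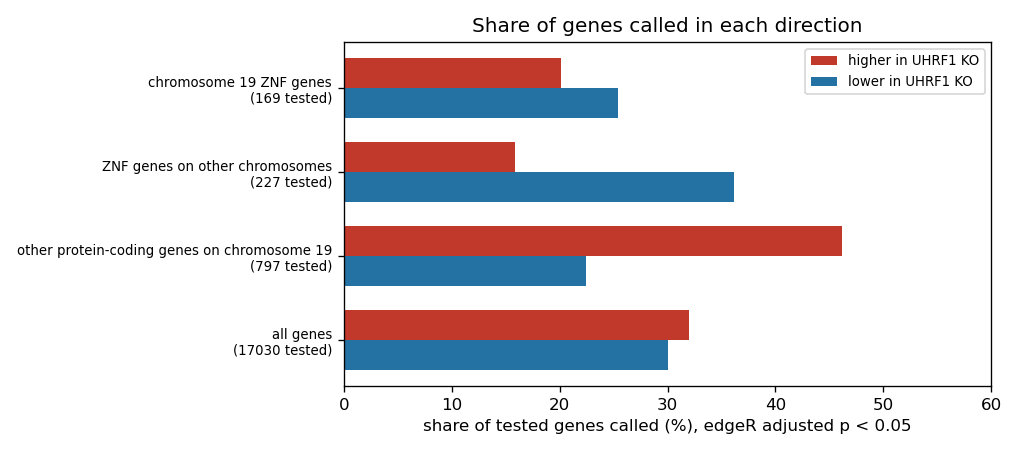
Share of tested genes (%) called higher or lower in UHRF1 KO (edgeR adjusted p under 0.05) for chromosome 19 ZNF genes, ZNF genes elsewhere, other coding genes of chromosome 19 and all genes. The chromosome 19 ZNF bars, at 20.1% and 25.4%, are both shorter than those of all genes, at 32% and 30.1%.

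The tested genes were weakly expressed, and the share called rose with the count. Their median mean count was 121.25 against 333 over all tested genes, and their median SE was 0.17 against 0.10. Below a mean of 50 counts 36.4% of 44 chromosome 19 ZNF genes were called against 45.2% of all genes, from 50 to 200 counts 40% of 75 against 56.1%, and from 200 to 1000 counts 61.7% of 47 against 65.3%. At 1000 counts or more there were 3 of them, of which 2 were called. Their share was below that of all genes in each of these 4 ranges. The GC content of their exons was also lower, with a median of 43.2% against 48.5% over all genes and 60.2% over the other coding genes of chromosome 19.

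**Figure D2:**
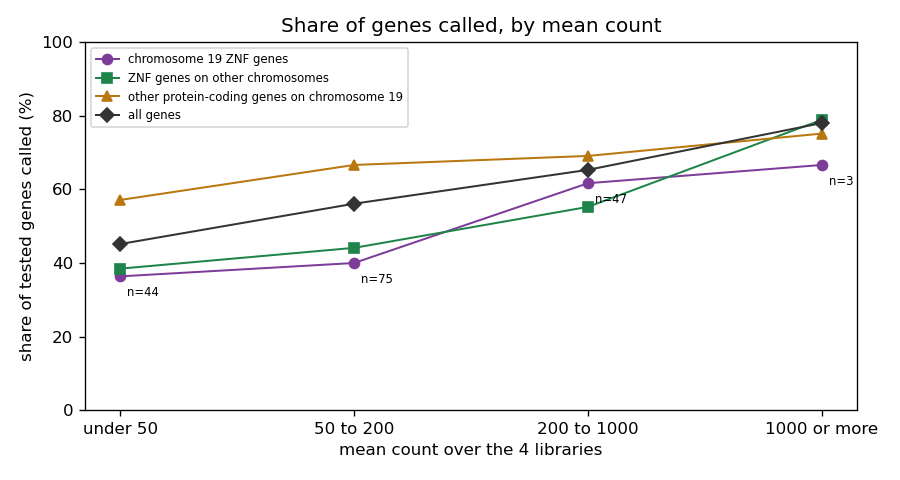
Share of tested genes called in either direction (%) by mean count over the 4 libraries, for the same 4 sets; n is the number of chromosome 19 ZNF genes in each range. The chromosome 19 ZNF line climbs from 36.4% below 50 counts to 61.7% between 200 and 1000 counts.

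Most changes were small. The 34 rises ran from 0.22 to 6.81 on the log2 scale with a median of 0.79. The top value is the fitted one of ZNF528, which had 0 control counts. For that gene only a rise of at least 8.24-fold over the floor can be stated. The 43 falls ran from -0.19 to -1.44 with a median of -0.50. In all 77 the 2 groups of libraries did not overlap, which a gene called with 2 libraries a group nearly has to show. Of the tested genes, called or not, the groups did not overlap in 113 of 169 chromosome 19 ZNF genes and in 13616 of all 17030. Changes of at least 2-fold were found for 10 rises and 3 falls, or 5.92% and 1.78% of the tested genes (7.69% in all), against 15.4% and 2.54% of all tested genes (17.9% in all). Of the 246, 10 passed the count filter through UHRF1 KO alone, of which 8 (80%) were called higher, against 1486 of 1982 such genes overall (75%); a gene that passed that way had to be high in UHRF1 KO, so that count is a description only. The 153 that passed it in both groups had 26 higher and 42 lower (17% and 27.5%, 44.4% in all), against 27.3% higher and 34.4% lower of all such genes (61.8%). Over all 213 genes with a count, tested or not, both UHRF1 KO libraries exceeded both controls in 69 and fell below them in 61, against 33.9% and 23.3% of all genes with a count. The summed level of the 246 was 1736 and 1752 CPM in the controls and 1584 and 1603 CPM in UHRF1 KO, or 91.4% of control, and that of the ZNF genes elsewhere was 91.5% of control.

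Among called genes with a mean of at least 1 CPM in the higher group, the 8 largest rises were KRAB genes in 5 clusters. That the 2 groups do not overlap was a condition of this choice. ZNF792 (chr19:34956354-34964049), whose window is shown above, stood at 5.44 and 4.69 CPM in the controls and 15.9 and 15.9 CPM in UHRF1 KO. Both UHRF1 KO libraries were well above both controls, a 3.14-fold rise (log2 1.65, SE 0.13, edgeR adjusted p = 8.4e-13). ZNF548 stood at 3.36 and 3.88 CPM against 8.25 and 9.09 CPM, a log2 change of 1.26 (SE 0.17). ZNF426 stood at 2.69 and 2.26 CPM against 4.97 and 5.35 CPM, a log2 change of 1.06 (SE 0.21). ZNF841 stood at 3.31 and 2.59 CPM against 5.55 and 5.51 CPM, a log2 change of 0.91 (SE 0.20). In each of these 4 both UHRF1 KO libraries lay above both controls, and the gene was called whichever single library was left out.

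The other 4 rises were weaker and depended on single libraries, and ZNF28, ZNF568 and ZNF582 passed the count filter through UHRF1 KO alone. ZNF28 stood at 0.336 and 0.593 CPM against 0.723 and 1.49 CPM (log2 1.26), and without UHRF1 KO 2 its edgeR adjusted p was 0.496. ZNF568, whose mouse counterpart silences a placental Igf2 transcript, stood at 0.28 and 0.647 CPM against 1.16 and 0.885 CPM (log2 1.11), and its edgeR adjusted p was 0.353 without control 1. ZNF418 (log2 0.97) and ZNF582 (log2 0.96) lay between 0.377 and 1.49 CPM in all libraries, and their edgeR adjusted p rose to as much as 0.264 without UHRF1 KO 1 and 0.472 without control 2. None of these 4 was called by DESeq2. The other large rises, named after their values were seen because their mean in UHRF1 KO was under 1 CPM, were ZNF813 at 2.88, ZNF525 at 2.04 and ZNF468 at 1.13 on the log2 scale, each at most 1.13 CPM in any library. These 3, like ZNF528 and ZNF701, lie in 1 stretch of the chromosome, cluster 8, and passed the count filter through UHRF1 KO alone. ZNF471 was not tested, with 1 and 0 counts in the controls and 13 and 12 counts in UHRF1 KO.

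Among called genes with at least 1 CPM in the controls, the 8 largest falls ran from -1.11 to -0.80 on the log2 scale. ZNF555 (chr19:2841435-2860484) stood at 3.03 and 2.37 CPM in the controls and 1.01 and 1.45 CPM in UHRF1 KO, a log2 change of -1.11 (SE 0.29). Its close neighbour ZNF57 stood at 2.24 and 2.32 CPM against 1.25 and 0.965 CPM, a log2 change of -1.05 (SE 0.31). Both libraries of UHRF1 KO were below both controls for each gene, which was a condition of the choice of the 8 falls. ZNF714, a finger gene in which no KRAB box was found, stood at 11.9 and 10.3 CPM against 5.26 and 6.88 CPM, a log2 change of -0.86 (SE 0.14, edgeR adjusted p = 4.37e-06). ZNF607 stood at 5.72 and 5.66 CPM against 3.42 and 2.61 CPM, a log2 change of -0.93 (SE 0.20). ZNF460 was much the same, at 5.78 and 5.44 CPM against 3.42 and 2.53 CPM. ZNF543, ZNF823 and ZNF14 fell by 0.80, 0.99 and 0.87 on the log2 scale. Of the 8 falls 5 were called without any single library, while ZNF57 (edgeR adjusted p = 0.0616 without UHRF1 KO 2), ZNF823 (0.205 without UHRF1 KO 1) and ZNF14 (0.144 without UHRF1 KO 2) were not. ZNF443 had the lowest fitted value, -1.44, from levels under 1 CPM, and was named after its values were seen. It passed the count filter through the controls alone, so it had to be high there.

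**Figure D3:**
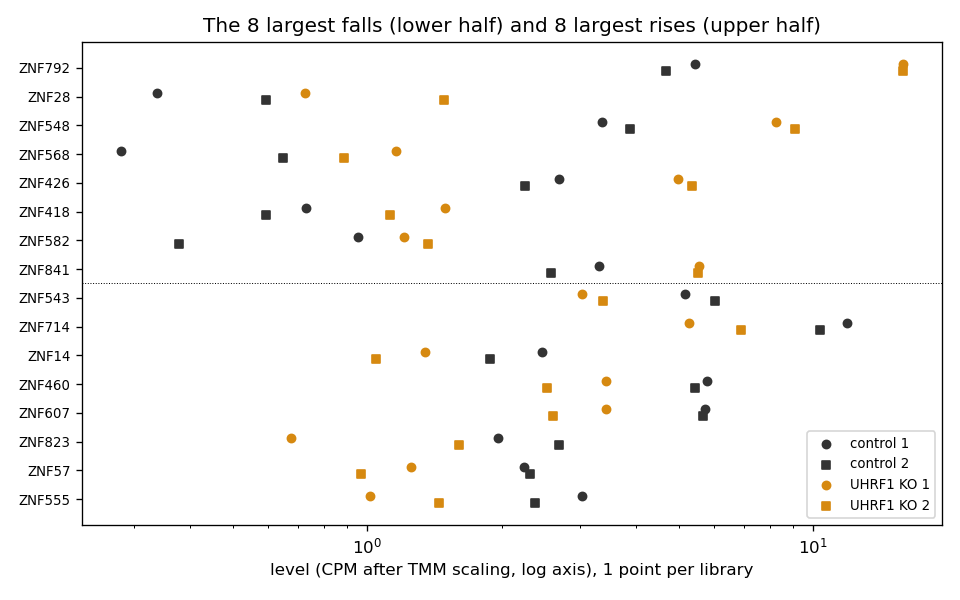
Level (CPM after TMM scaling, log axis) of the 8 largest rises and the 8 largest falls among called chromosome 19 ZNF genes with at least 1 CPM in the higher group, 1 point per library. Only genes whose control and UHRF1 KO points do not overlap were taken, so none of the 16 overlap. ZNF792 rises from 4.69 and 5.44 to 15.9 CPM.

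Reads from related genes can be confused, and the labels do not say what was done with a read that aligned to more than 1 place. Of the 246 genes, 49 have at least 10% of their transcript 50-base stretches in another gene as well, among them ZNF468 at 55.8%, ZNF443 at 37.7%, ZNF701 at 14.2%, ZNF607 at 12.6% and ZNF813 at 11.3%. For ZNF792 and ZNF528 the share was 0% and 0.69%. Exons of 137 genes overlap those of another gene on either strand, ZNF28, ZNF548, ZNF841, ZNF555, ZNF57, ZNF607, ZNF460 and ZNF146 among them. The labels do not state the use of strand, and without it their reads cannot be told from those of the partner. Among the 74 tested genes with neither feature, 13 were higher and 19 lower, against 32% and 30.1% of all tested genes. Of the 13 rises, 3 were in genes that passed the count filter through UHRF1 KO alone. The 70 that passed it in both groups had 10 higher and 19 lower, against 27.3% and 34.4% of all such genes.

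Along the chromosome the genes fell into 9 clusters of at least 5, with gaps under 1 Mb, and 11 other genes. These 11 stood alone or in groups of under 5, some of them close together. The clusters did not all lean the same way. Clusters 1, 3 and 4 had no call upward: 0 higher and 2 lower of 4 tested at ZNF554 to ZNF77, 0 and 3 of 9 at ZNF653 to ZNF791, and 0 and 4 of 10 at ZNF101 to ZNF254. These compare with 32% higher and 30.1% lower of all tested genes. They had 0 higher in each of 14 fits, of which 13 were alternatives, while their falls ran from 1 to 3, 0 to 6 and 2 to 5. Cluster 3 had 0 lower with DESeq2's test and 1 without control 1, cluster 1 had 1 without UHRF1 KO 2, and cluster 4 had 2 without control 1 or without UHRF1 KO 2. Clusters 3 and 4 are also those with most silence, at 15 of 25 and 22 of 37 genes with at most 3 control counts. In cluster 3, 3 of the 9 tested genes passed the count filter through the controls alone. Of these 1 was called lower, which is a description only. The 5 genes of cluster 3 that passed it in both groups had 0 higher and 2 lower. Cluster 5, the 5 genes from ZNF302 to ZNF792 (chr19:34677639-34964049), had 3 higher and 0 lower, with 1 to 4 higher and 0 lower over the same 14 fits; beside ZNF792 these were ZNF302 at 0.22 and ZNF30 at 0.58 on the log2 scale, named after their values were seen. No test between clusters was run.

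Cluster 8, the 39 genes from ZNF175 to ZNF331 (chr19:51571298-53580269), had 10 higher and 3 lower of 22 tested, and a median log2 fold change of 0.38. For this and the groups below, the shares over all tested genes were 32% higher and 30.1% lower. Of the 10 rises, 6 were in genes that passed the count filter through UHRF1 KO alone and had to be high there. Among the 16 genes that passed in both groups 4 were higher and 3 lower with a median of 0.12. Of all genes that passed in both groups, 27.3% were higher and 34.4% lower. Of its 35 genes with a count, both UHRF1 KO libraries exceeded both controls in 21 and fell below them in 3, against 33.9% and 23.3% of all genes with a count. The number of rises ran from 4 to 15 over the 14 fits, at 4 without UHRF1 KO 2 and 6 without control 1, and that of falls from 0 to 3, at 1 without control 1 or UHRF1 KO 1. ZNF761, named after its values were seen, had the smallest adjusted p of the rises among genes that passed in both groups, at 8.75 and 9.27 CPM in the controls and 14.1 and 13.1 CPM in UHRF1 KO. Cluster 9, the largest at 59 genes from ZNF628 to ZNF446 near the end of the long arm, had 10 higher and 14 lower of 55, and cluster 7, with all 24 genes tested, had 4 higher, led by ZNF229 at 0.87 on the log2 scale, and 1 lower. Clusters 2 and 6 had 3 higher with 4 lower of 13, and 3 higher with 5 lower of 18. In clusters 6 and 9, 1 rise each was in a gene that passed the count filter through UHRF1 KO alone. Genes that passed it in both groups gave 2 higher and 5 lower of 17 in cluster 6. In cluster 9 they gave 9 higher and 14 lower of 53. Leaving out 1 library took the rises of cluster 2 to 1 (without control 1 or UHRF1 KO 2) and its falls to 2 (without control 1), the rises of cluster 9 to 6 (without either UHRF1 KO library), the rises of cluster 7 to 2 (without either control or UHRF1 KO 2) and its falls to 2 (without control 1 or UHRF1 KO 1). Of the 9 tested genes outside the clusters 7 were lower and 1 was higher, the latter not without control 2.

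**Figure D4:**
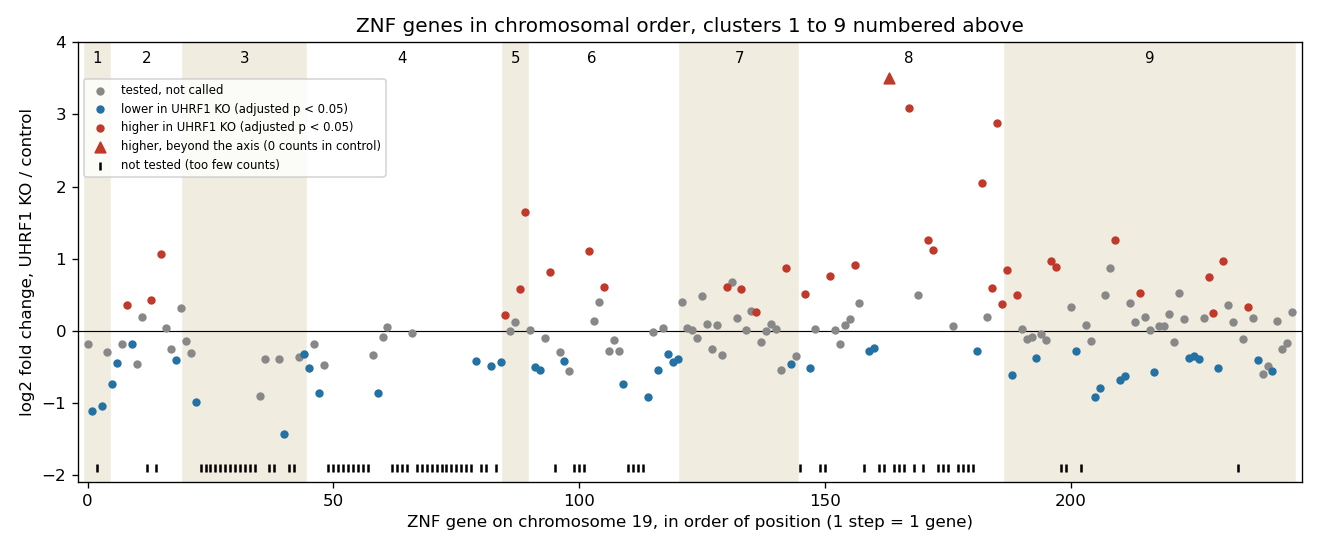
Log2 fold change of each of the 246 ZNF genes in order along chromosome 19; shading and numbers mark clusters 1 to 9, ticks at the bottom mark genes with too few counts, and the triangle is ZNF528, with 0 control counts. Ticks crowd clusters 3 and 4, and red points above 1 are most frequent in cluster 8, where 6 of the 10 rises come from genes that passed the filter through UHRF1 KO alone.

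By protein structure, 209 genes had a KRAB box and 37 did not, scored on the longest reading frame of the GENCODE transcripts. KRAB genes had 32 higher and 34 lower of 141 tested, with a median of 0.02, and genes without KRAB had 2 higher and 9 lower of 28, with a median of -0.13, against 32% higher and 30.1% lower of all tested genes. Of the 32 rises, 8 were in genes that passed the count filter through UHRF1 KO alone and had to be high there. The 125 KRAB genes that passed it in both groups had 24 higher and 33 lower, against 27.3% higher and 34.4% lower of all such genes. All 28 tested genes without KRAB passed it in both groups. The number of fingers had a median of 12 in the genes called higher, in those called lower and in those that did not pass, with a range of 0 to 36 over all 246. The genes without KRAB had a median exon GC content of 61.1% against 42.6% for the KRAB genes, and the 2 properties cannot be told apart here.

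The genes with the highest level per exon length in the controls all lacked a KRAB box. ZNF146, a protein made up almost only of fingers and known to be overexpressed in several carcinomas, led at 57.6 RPKM (reads scaled to exon length and library size). It stood at 232 and 245 CPM in the controls and 168 and 169 CPM in UHRF1 KO. It was lower in both UHRF1 KO libraries, with a log2 change of -0.50 (SE 0.04, edgeR adjusted p = 1.2e-12), and it holds most of the summed level of cluster 6, which went from 358 and 378 CPM in the controls to 287 and 287 CPM. ZNF787 came next at 13.7 RPKM and did not pass (log2 -0.04, SE 0.06), nor did ZNF428 at 11.7 RPKM (log2 0.01, SE 0.09). ZNF574 at 10.3 RPKM stood at 48.1 and 48.2 CPM against 35.2 and 36 CPM, a log2 change of -0.43 (SE 0.07).

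Of 12 genes known for promoter methylation in tumours, 2 were higher, 0 lower and 3 did not pass among the 5 tested. Over all tested genes 32% were higher and 30.1% lower, and 5 genes are too few to set against these shares. ZNF331, an imprinted gene, stood at 10 and 9.65 CPM in the controls and 13.5 and 12 CPM in UHRF1 KO, a log2 change of 0.37 (SE 0.12, edgeR adjusted p = 0.00877), with p at 0.111 without UHRF1 KO 1 and 0.0634 without control 2. ZNF582, described with the rises, was the other, and it passed the count filter through UHRF1 KO alone. ZNF132, ZNF154 and ZNF671 gave log2 values of 0.13, 0.52 and 0.17 that did not pass. ZNF667, ZNF677 and ZNF177, the last with most of its 50-base stretches also in another gene, had no count in any library, ZNF135 had 1 count in UHRF1 KO 2, ZNF382 had 1 and 0 control counts and 3 and 7 in UHRF1 KO, and ZNF577 had 0 and 2 against 2 and 3. ZNF471, among the 3 genes that came on, is the seventh of the 12 that were not tested.

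Of 9 genes whose proteins are known to bind transposable elements, 4 were tested, with 1 higher, 1 lower and 2 that did not pass. The shares over all tested genes were 32% higher and 30.1% lower. ZNF587 and ZNF417, near-identical neighbours that bind HERVK, went opposite ways by edgeR. DESeq2's own test called neither (adjusted p = 0.168 and 0.0647). ZNF587 was also not called with no filter (edgeR adjusted p = 0.0873) or after GC and length correction plus recentring (0.418). ZNF587 stood at 17.4 and 15.6 CPM in the controls and 20.1 and 19 CPM in UHRF1 KO, a log2 change of 0.24 (SE 0.10), and without control 2 its edgeR adjusted p was 0.293. ZNF417 stood at 7.29 and 7.71 CPM against 5.59 and 4.95 CPM, a log2 change of -0.51 (SE 0.16), and without UHRF1 KO 2 its edgeR adjusted p was 0.0574. They have 18.8% and 37.6% of their 50-base stretches in another gene, and the labels do not state how such reads were divided between them. ZNF611 (log2 0.49, edgeR adjusted p = 0.0659) and ZNF765 (0.19) did not pass, though ZNF611 did without control 2 (0.00895), and both did once GC and length trends were taken out (0.00327 and 0.00836). ZNF93, which binds L1 elements, had 0 counts in all libraries, and ZNF91, which binds SVA elements, had 2 and 3 control counts and 6 and 13 in UHRF1 KO.

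ZNF274, which brings SETDB1 to the 3′ ends of other ZNF genes, stood at 20.1 and 23.8 CPM in the controls and 26.3 and 28.8 CPM in UHRF1 KO. It was 0.33 higher on the log2 scale (SE 0.09, edgeR adjusted p = 0.0017), with p at 0.0797 without control 1. The partners through which KRAB proteins act moved down more often than up: of 22 co-repressor genes tested, 16 were lower, 1 was higher (CHD4) and 5 did not pass, with a median of -0.23. Over all tested genes 30.1% were lower and 32% higher with a median of 0.02, but 15 of the 22 had a mean of at least 1000 counts, and among all genes at that level 51.5% were lower and 26.5% higher, with a median of -0.13. CBX5, which encodes HP1 alpha, stood at 340 and 349 CPM in the controls and 141 and 135 CPM in UHRF1 KO. It fell by 1.32 on the log2 scale (SE 0.04, edgeR adjusted p = 3.12e-24), the other HP1 genes CBX1 and CBX3 by 0.54 and 0.42 and the chromatin remodeller gene CHD3 by 0.57. SUV39H1, an H3K9 methyltransferase gene named, like CHD4, after its values were seen, fell by 0.90. TRIM28, the scaffold that KRAB boxes bind, stood at 445 and 417 CPM against 377 and 391 CPM, a log2 change of -0.17 (SE 0.04, edgeR adjusted p = 0.000221). SETDB1 had a log2 value of -0.17 and missed the threshold at an edgeR adjusted p of 0.0512; it was called with DESeq2 size factors (0.049), with no filter (0.0312), without control 2 (0.0264) and after GC and length correction plus recentring (2.46e-07), and not in the other fits. The number lower ran from 11 to 20 over the alternative fits, and CHD4 was not called without control 1 or without UHRF1 KO 2.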

How the data were processed

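The authors deposited raw read counts for each gene (whole numbers, seen in the values), for 2 control and 2 UHRF1 KO libraries of A549 RNA made with a SMARTER mRNA-Seq kit, per the labels' protocols. FastQC 0.10.1 and GRCh38 are named in the submitters' processing notes. The aligner, counter and strand setting are not given in the sources here. All 58735 identifiers matched GENCODE 29. One short name stands on both control samples in the labels, so the control columns were matched by replicate number. The chi-square per degree of freedom between the 2 libraries of a group was 2.65 (control) and 1.85 (UHRF1 KO), so each was kept as a replicate.

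The test was edgeR 4.0.16 under R 4.3.3 (filterByExpr by group, TMM, glmQLFit with robust moderation, glmQLFTest, two-sided, Benjamini-Hochberg over 17030 genes, threshold 0.05). The biological coefficient of variation was 3.16%. The SE of a log2 fold change is its size divided by the root of F. On simulated data with 16515 genes, 21 of 49 true changes of 1.2-fold, 38 of 48 of 1.5-fold, 43 of 49 of 2-fold and 48 of 48 of 4-fold were called, with 9 false calls. The simulation gave every gene the same coefficient of variation and changed only these genes. Its rates need not hold for weak genes or where most genes change. Fold changes from 0 control counts use a floor of 3 counts over both control libraries; intervals and floors cover counting error only.

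RPKM and CPM were computed here, from the deposited counts. No protein table was used: KRAB boxes (at least 9 of 15 conserved places) and C2H2 fingers (C-x2 to x4-C-x12-H-x3 to x5-H) were read from the longest reading frame of GENCODE transcripts. The members and lists were chosen with earlier results of these data known, and no set test was run. The text names UHRF1, the top 8 rises and top 8 falls of called members whose groups do not overlap and that have at least 1 CPM in the higher group, members that came on from 0 control counts, the 4 highest per exon length, tested members of the tumour methylation and element binder lists, ZNF274, 6 co-repressors, and the smallest adjusted p in each cluster; untested list members are given by their counts, genes at the ends of clusters or blocks mark positions, and others were named after their values were seen. Alternatives were DESeq2 1.42.0 and its size factors, limma-voom 3.58.1, upper-quartile factors, 2 other filters, a replicate block, leaving out each library, removal of GC and length trends (mgcv 1.9.3) with and without recentring, and stricter thresholds. The limits of 0 control counts and of 5 UHRF1 KO counts for silent genes were added after the data were seen.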

Additional observations from a re-analysis of the deposited data

How the results depend on the processing

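Chromosome 19 ZNF genes gave 34 higher and 43 lower; leaving out each library gave 19 to 27 higher and 33 to 42 lower, DESeq2's test 17 and 23, and an adjusted p under 0.01 left 21 higher. A minimum of 2-fold left 10 and 3 of them, 7 and 4 of the ZNF genes elsewhere, 148 and 12 of the other coding genes of chromosome 19, and 2616 and 432 of all genes. DESeq2 called 21 and 54 of the ZNF genes elsewhere. With GC content and length trends removed, the calls were 51 and 36, 50 and 69, 294 and 268, and 6132 and 4598 in the same 4 sets, and recentring as well gave 21 and 71, 18 and 139, 166 and 432, and 3299 and 8746. Recentring moved the median log2 fold change of all genes from 0.02 to -0.28 and that of the chromosome 19 ZNF genes to -0.25. The number of silent chromosome 19 ZNF genes that came on was 3, and 1 or 5 with other limits. The cause of these shifts was not tested.

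The replicate numbers did not pair the libraries (correlation of deviations -0.014 across genes); with the replicate block, 31 chromosome 19 ZNF genes were higher and 40 lower, and ZNF568 and ZNF582 were no longer called (edgeR adjusted p = 0.0567 and 0.054).

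Of 564 refits of single named genes, 475 kept direction and call, 72 lost the call, 8 gained it and 9 changed sign, the last all in genes that had not passed. ZNF428 went to -0.022 with no filter, ran from -0.031 to 0.028 with 1 library left out, and went to -0.35 with GC and length trends removed and -0.71 with recentring. ZNF671 ran from -0.34 (without UHRF1 KO 2) to 0.49 with 1 library left out and went to -0.26 with recentring, and ZNF132 and ZNF765 to -0.28 and -0.01 with recentring. With 2 libraries a group and a median of 121.25 counts per tested gene, small changes of weak genes may have been missed.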
